A study of Mus musculus with 2 samples.

Results

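Transcripts of 10 genes of lipid uptake, lipid efflux and lipoprotein handling were compared between pooled macrophage-like cells of the mouse colon and pooled blood monocytes. The genes were Abca1, Abcg1, Apoe, Apoc2, Lpl, Cd36, Fabp4, Fabp5, Ch25h and Plin2, chosen by name, and every array probe that carried one of these names, in the file or through its RefSeq accession, was read. All 10 had a probe and all 10 were measured, of 15691 measured genes and 27238 named genes on the array. They were read by 11 probes on 20 spots, of which 10 spots repeat the Apoe probe and Lpl has 2 probes.

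The first pool, called the colon pool here, held CX3CR1high CD11b+ CD11c+ cells sorted from the large intestinal lamina propria, the connective tissue below the epithelium, of CX3CR1gfp/+ mice. In these mice green fluorescent protein replaces 1 allele of Cx3cr1, the fractalkine receptor gene. The second, called the blood pool, was made of Ly6c+ CD11b+ monocytes taken from C57BL/6J blood. No treatment is named for either pool, and the age and sex of the mice are not given in the sources used here. Numbers of 10 (colon) and 6 (blood) are stated for the design, and what they count is not given in the sources used here. RNA of the pools was compared on a dye-swapped pair of two-colour arrays (colon pool in Cy5 on array 1 and in Cy3 on array 2), and the pair was counted as 1 replicate because both arrays name the same pools, although the labels do not say outright that the same RNA extracts were used. With 1 replicate there was no test, and no p-value is given. SDs are over the 2 arrays and cover the error between arrays, precision is limited by the number of arrays, and the effects of cell type, tissue, mouse line and isolation cannot be told apart.

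Macrophages and monocytes take up modified lipoproteins and fatty acids through scavenger receptors such as CD36, carry fatty acids in the cytosol on fatty acid binding proteins, and store surplus lipid in droplets coated by perilipin 2. Lipoprotein lipase, with apolipoprotein C-II as its cofactor, releases fatty acids from lipoprotein triglycerides. Cholesterol leaves the cell through the transporters ABCA1 and ABCG1 and on apolipoprotein E, and the genes of all 3 are textbook targets of the liver X receptors (LXR), which oxysterols activate.

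Values below are normalized intensities, which are comparable between pools for 1 probe and not between probes, and log2 ratios, colon over blood. A gene was called higher when each array gave a log2 ratio of 1 or more, and lower when each gave -1 or less, which is a 2-fold difference, provided that the brighter pool stood well above background on both. By this rule 7 of the 10 genes were higher in the colon pool, against 14.2% of all measured genes. The 7 were Abca1, Apoe, Cd36, Ch25h, Fabp5, Plin2 and Fabp4. Apoc2 alone was called lower, against 4.45% of all measured genes, and Abcg1 and Lpl were called neither. Thus 8 of 10 were called in either direction, against 18.6% of all measured genes. The 10 genes were chosen with earlier results of these data known, so these shares are a description and no test. The median log2 ratio of the 10 genes was 1.53, beside 0.06 for all measured genes. Both pools were well above background on both arrays for all 10 genes, as they were for 13293 of the 15691 measured genes by at least 1 probe. The sign of the ratio was the same on both arrays for all 10, and the share of all measured genes for which this holds is not given here. The SD between the arrays ran from 0.0033 (Fabp4) to 0.48 (Apoe).

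**Figure D1:**
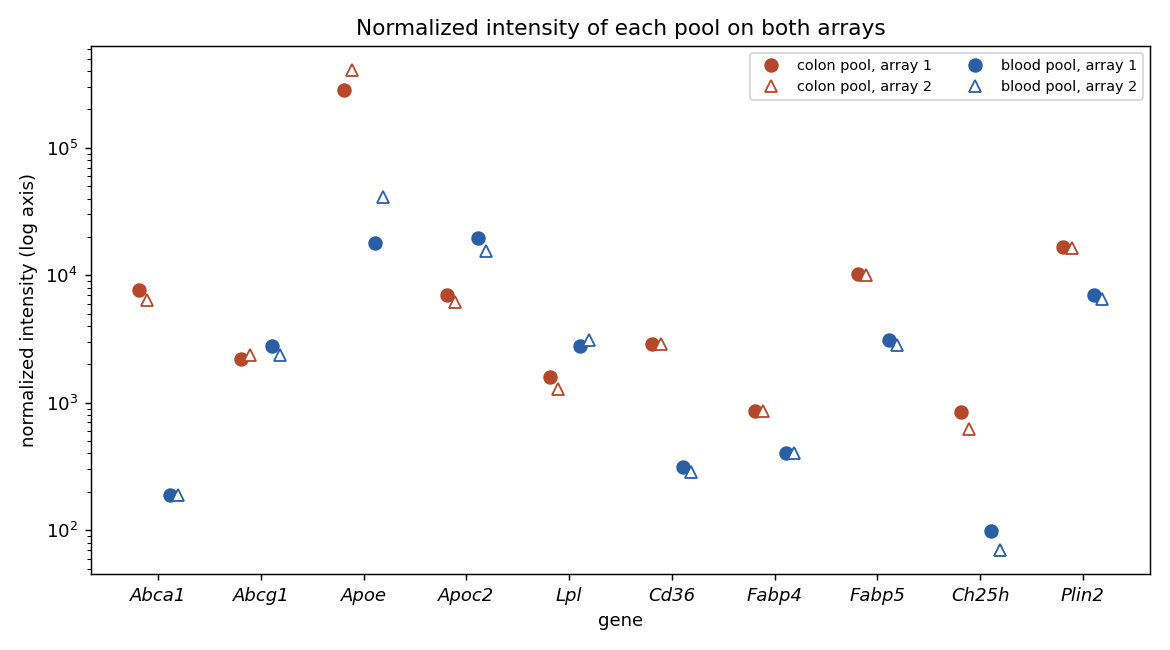
Normalized intensity of each gene (log axis) in the colon pool (red, left of each pair) and in the blood pool (blue, right), on array 1 (filled circles) and array 2 (open triangles), with 1 probe per gene. The pools lie far apart for Abca1, Apoe, Cd36 and Ch25h, nearly coincide for Abcg1, and for Apoc2 and Lpl the blood pool is the higher one.

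The efflux transporters differed from each other. Abca1, which loads cholesterol and phospholipid onto lipid-poor apolipoprotein A-I, read 7732 and 6419 in the colon pool on arrays 1 and 2, against 187.7 and 189.5 in the blood pool. Both colon values lie far above both blood values. The log2 ratio was 5.36 on array 1 and 5.08 on array 2, with a mean of 5.22 ± 0.20, a 37.4-fold higher level in the colon pool. That ratio was above those of 99.7% of the measured genes. The Abca1 probe lies at chr4:53043944-53044003 on the minus strand of mouse build mm9, the build of the files. Abcg1, which passes cholesterol to mature high-density lipoprotein, read 2215 and 2370 in the colon pool, against 2804 and 2383 in the blood pool. On array 2 the pools coincided, and the log2 ratios of -0.34 and -0.01 averaged -0.17 ± 0.23. The Abcg1 probe lies at chr17:31252580-31252639, plus strand. The difference between the transporters, over 5 on the log2 scale on each array, exceeds the spread of either gene between the arrays.

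LXR, paired with its partner receptor RXR, is known to bind repeats of a short element in a DNA strand, and Abca1 has the highest ratio of the 10 genes, so the promoters on hand were searched for such a repeat. RefSeq promoter sequences (assembly GRCm38.p6) were on hand for 6 of the 10 genes, Abca1, Plin2, Cd36, Apoc2, Apoe and Ch25h, with 8 start sites in all. The letters searched were GGTNA followed by GGTCA with 5 bases between, on both strands of the 250 bases before each start. Of 32851 promoters of the mouse, 58 held this motif (0.177%), and among the 8 promoters of these genes only that of Abca1 did. A second motif, GGNCA followed by GGNCA with 2 bases between, is the kind of repeat that peroxisome proliferator-activated receptors (PPAR) and other nuclear receptors are known to bind. It was held by 576 of 32851 promoters (1.75%) and among these genes by Apoc2, the gene with the lowest ratio. No promoter of these genes held both motifs. The search followed from the ratio of Abca1 and the 2 motifs leave different bases free, so the shares of all promoters are a description and no test. A match of letters is a description and not a binding site, and no binding was measured. The 2 promoters that matched are shown 5′ to 3′ on the strand of the gene, chr4:53159896-53160145 (minus strand) for Abca1 and chr7:19677942-19678191 (minus strand) for Apoc2, with the match in capitals. It lies 67 to 53 bases before the start of Abca1, on the opposite strand, and 121 to 110 bases before the start of Apoc2, on the same strand.
Abca1 promoter: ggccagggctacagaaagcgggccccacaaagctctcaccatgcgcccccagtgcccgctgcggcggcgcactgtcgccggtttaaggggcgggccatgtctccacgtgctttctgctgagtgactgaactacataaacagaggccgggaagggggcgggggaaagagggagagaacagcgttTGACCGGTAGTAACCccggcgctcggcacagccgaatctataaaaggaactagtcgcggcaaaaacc
Apoc2 promoter: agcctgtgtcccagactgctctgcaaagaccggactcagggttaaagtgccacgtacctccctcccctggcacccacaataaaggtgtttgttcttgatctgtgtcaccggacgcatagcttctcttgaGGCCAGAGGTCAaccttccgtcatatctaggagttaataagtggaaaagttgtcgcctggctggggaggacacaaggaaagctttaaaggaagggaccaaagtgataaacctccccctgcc

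Among the apolipoproteins and the lipase, 1 gene was higher, 1 was lower and 1 was neither. Apoe encodes apolipoprotein E, the ligand of lipoprotein receptors that macrophages secrete with cholesterol. Its normalized intensity was 282700 and 408100 in the colon pool, against 17790 and 41240 in the blood pool. The pools did not overlap, although the blood value differed more than 2-fold between the arrays. The log2 ratio was 3.99 on array 1 and 3.31 on array 2, with a mean of 3.65 ± 0.48 (12.5-fold, above 98.2% of measured genes). This was the largest SD of the 10 genes.

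The Apoe probe is printed on 10 spots of each array, so the error within an array can be read for it. Its target, at chr7:20281732-20281791 (minus strand, mm9), is shown because this repeated probe separates the error between spots of an array from that between arrays.
Apoe probe: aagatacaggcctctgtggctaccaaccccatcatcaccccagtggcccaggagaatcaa
Over the 8 spots used, the log2 ratio ranged from 3.97 to 4.01 on array 1 (SD 0.0145) and from 3.28 to 3.33 on array 2 (SD 0.0185). Another 2 spots were flagged as outliers by the scanner software on array 1 and were left out on both arrays. The unnormalized intensity on array 1 was 337900 to 379000 in the colon pool (Cy5), against 13390 to 14850 in the blood pool (Cy3). On array 2 it was 159300 to 170800 in the colon pool (Cy3), against 96680 to 104300 in the blood pool (Cy5). The difference of the Apoe ratio between the arrays was thus far larger than the scatter of its spots within an array. No spot was saturated on either array.

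Apoc2 encodes the cofactor that activates lipoprotein lipase. It read 7017 and 6124 in the colon pool, against 19660 and 15550 in the blood pool, and the pools did not overlap. The log2 ratios of -1.49 and -1.34 averaged -1.42 ± 0.10, a 2.67-fold higher level in the blood pool, and only 2.67% of the measured genes had a lower ratio. The Apoc2 probe, at chr7:20257027-20257086 (minus strand, mm9), was named by the file alone and not through a RefSeq accession. In the gene order of GRCm38.p6, Apoc2, Apoc4, Apoc1 and Apoe follow each other on chromosome 7, with Tomm40 beyond Apoe. The ratios along this run did not share a direction. Apoc1, another small exchangeable apolipoprotein, was called lower like Apoc2 (-1.61 ± 0.04). Apoc4 was not called (0.97 ± 0.19) and did not pass the background flag in the blood pool. Its level in the colon pool was 1.96-fold higher as a bound from the mean of both arrays, with a log2 ratio of 0.84 on array 2. Tomm40, a gene of mitochondrial protein import, was at -0.20 ± 0.06. Apoe thus stood in the opposite direction to Apoc2 and Apoc1.

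Lpl encodes lipoprotein lipase, and its 2 probes read different stretches of the gene, with starts 5217 bases apart on the genome and not along the transcript. The brighter probe (chr8:71430267-71430326, plus strand, mm9) read 1606 and 1292 in the colon pool, against 2802 and 3094 in the blood pool. Its log2 ratios were -0.80 and -1.26, with a mean of -1.03 ± 0.32, so the 2-fold rule was met on array 2 and not on array 1. The other probe (chr8:71425050-71425109, plus strand) read 394.1 and 384.4 in the colon pool, against 575.3 and 544.3 in the blood pool. Its log2 ratios were -0.55 and -0.50, with a mean of -0.52 ± 0.03. Both probes were lower in the colon pool on both arrays, but neither reached 2-fold on each array. The second probe's target is shown because it gave the smaller ratio with the smaller spread.
Lpl second probe: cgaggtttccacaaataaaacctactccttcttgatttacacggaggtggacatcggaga

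**Figure D2:**
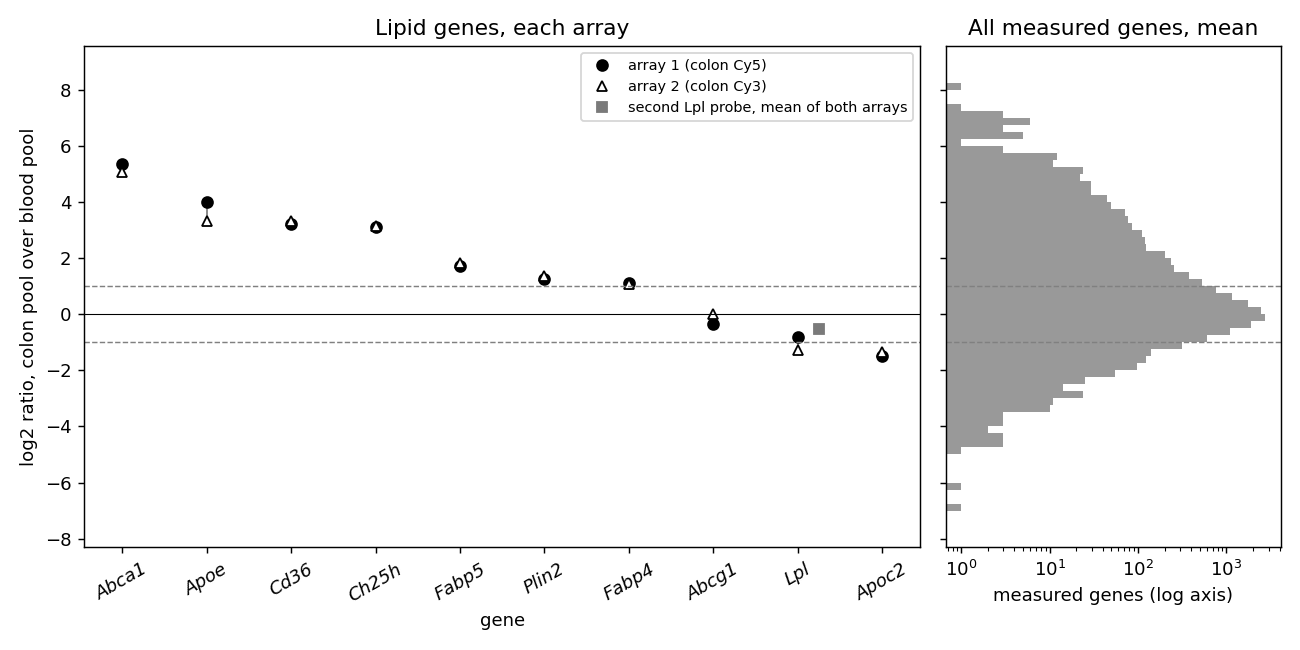
Left, log2 ratio (colon over blood) on each array, with a grey line joining the arrays, dashed lines at 1 and -1, and a grey square for the second Lpl probe (-0.52). Right, the mean ratios of all 15691 measured genes as a histogram with a log count axis. Abca1 (5.22) lies in the upper tail and Apoc2 (-1.42) in the lower.

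All 3 genes of fatty acid uptake and binding were higher in the colon pool. Cd36, a scavenger receptor and fatty acid translocase, read 2902 and 2872 in the colon pool, against 313.5 and 288.3 in the blood pool. Its log2 ratio was 3.21 and 3.32, with a mean of 3.26 ± 0.07 (9.60-fold, above 97.6% of measured genes), and the probe lies at chr5:17288600-17288659, minus strand. Fabp5, a fatty acid binding protein first described in epidermis, read 10270 and 10000 in the colon pool, against 3108 and 2849 in the blood pool. The mean log2 ratio of Fabp5 was 1.77 ± 0.06 (3.41-fold), from 1.72 and 1.81 (probe at chr3:10016185-10016244, plus strand). Fabp4, the fatty acid binding protein of adipocytes and macrophages, read 858.8 and 855.9 in the colon pool, against 401.1 and 401.0 in the blood pool. Its ratios of 1.098 and 1.094 were nearly identical, with a mean of 1.096 ± 0.0033 (2.14-fold, probe at chr3:10204452-10204511, minus strand), and lie just above the threshold. For each of the 3 genes both colon values lay above both blood values. These are 2 readings of each pool and not groups of samples, and the share of all measured genes for which this holds is not given here.

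Fabp5 and Fabp4 lie close together on chromosome 3 with Pmp2 and Fabp9 between them in GRCm38.p6. Pmp2, Fabp9 and the next gene beyond Fabp4, Fabp12, had probes that were not well above background in the same pool on both arrays. The Fabp4 and Fabp5 probes share no run longer than 6 bases, and no pair among the 11 probes shares a run longer than 8 bases. The size of the Fabp4 and Fabp5 ratios depended on the normalization. With each array centred on its median in place of the loess fit, Fabp5 read 2.02 on array 1 and 0.03 on array 2, and Fabp4 read 1.36 and -0.30, so both lost the call. With the ratios of the scanner software Fabp4 averaged 0.98 and also lost it.

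Both genes of oxysterol synthesis and lipid storage were higher. Ch25h encodes cholesterol 25-hydroxylase, which makes 25-hydroxycholesterol, an LXR ligand that also restrains cholesterol synthesis. It read 844.3 and 620.7 in the colon pool, against 97.78 and 69.68 in the blood pool, with no overlap. Ch25h was dim in the blood pool, at 64.66 and 87.05 before normalization, over a median local background of 40.5 and 43. The normalized blood values include the offset of 50, so the size of the ratio depends on it. The log2 ratio was 3.11 and 3.16, with a mean of 3.13 ± 0.03 (8.77-fold, above 97.2% of measured genes, probe at chr19:34548720-34548779, minus strand). With the smaller offset of 16 the ratio was 3.79, and with the ratios of the scanner software, which use no such offset, it was 4.60. Plin2, the coat protein of lipid droplets in most cells outside fat, read 16720 and 16460 in the colon pool, against 7032 and 6474 in the blood pool. The pools did not overlap, and the log2 ratios of 1.25 and 1.35 averaged 1.30 ± 0.07 (2.46-fold, probe at chr4:86302847-86302906, minus strand). Under median centring Plin2 read 1.58 on array 1 and -0.54 on array 2 and lost the call.

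In the order of their ratios, Abca1 stood first on both arrays. Apoe followed with 3.99 on array 1 and 3.31 on array 2, and on array 2 it lay just below Cd36 (3.32). Cd36 (3.26 ± 0.07) and Ch25h (3.13 ± 0.03) lay close together. The order of Apoe, Cd36 and Ch25h depended on the processing: Ch25h was above Cd36 without background correction (3.43 against 3.35), and above both other genes with the offset of 16 (3.80, against 3.57 for Apoe), under median centring (2.82, against 2.74) and with the ratios of the scanner software (4.60, against 3.63). Fabp5, Plin2 and Fabp4 came next, with no overlap between them on either array, then Abcg1, Lpl and Apoc2. On array 2 Lpl (-1.26) and Apoc2 (-1.34) lay close together.

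Another 97 genes of lipid handling were read in 7 lists, also chosen with earlier results of these data known, and 81 of the genes were measured. Of these 81, 21 were higher in the colon pool (25.9%, against 14.2% of all measured genes), 8 were lower (9.88%, against 4.45%) and 52 were neither, with a median log2 ratio of 0.36. Under median centring 10 were higher and 6 were lower, where 7.25% of all measured genes were higher and 3.56% were lower.

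Of the receptors that clear lipoproteins and modified lipids, 5 of 13 measured genes were higher and 2 were lower (median 0.89). Cxcl16, which encodes a membrane-bound chemokine that also binds oxidised low-density lipoprotein, read 14130 and 13030 in the colon pool, against 591.3 and 540.9 in the blood pool (4.58 ± 0.01). Stab1, a scavenger receptor gene of tissue macrophages, stood at 4.39 ± 0.01 and the macrophage scavenger receptor gene Marco at 3.23 ± 0.03. Vldlr, which encodes the very-low-density lipoprotein receptor and is dim in the blood pool, was 4.08-fold higher as a bound from the mean of both arrays. Its log2 ratio was 1.98 under median centring. Scarb1, the receptor gene for selective uptake from high-density lipoprotein, was lower (-1.20 ± 0.02, a call lost under median centring), as was the sorting receptor gene Sorl1 (-1.63 ± 0.16).

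Of the nuclear receptors of lipid sensing and their targets, 3 of 14 were higher and 0 were lower (median 0.27). Nr1h3, which encodes LXR alpha, read 3660 and 3277 in the colon pool, against 626.4 and 627.9 in the blood pool (2.47 ± 0.12). Nr1h2, which encodes LXR beta, read 3733 and 4018 in the colon pool, against 4259 and 4032 in the blood pool (-0.10 ± 0.13) and was not called. Among textbook LXR targets, Mylip, an E3 ubiquitin ligase gene, was higher (2.19 ± 0.03), whereas Srebf1 (-0.05 ± 0.08), Lpcat3 (0.20 ± 0.08) and Arl4c (0.67 ± 0.04) were not called. A second Mylip probe read 1.34. Angptl4, a PPAR target and an inhibitor of lipoprotein lipase, was higher (3.27 ± 0.25), while Pparg (0.33 ± 0.10) was not called. The PPAR targets Pdk4 (0.58 ± 0.10, dim in the blood pool) and Cpt1a (-1.17 ± 0.25) were not called either. With the ratios of the scanner software Cpt1a (-1.32) was called lower. Nr1h3 and Mylip lost the call under median centring (1.79 and 1.53).

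Only 8 of the 15 other apolipoproteins and lipoprotein factors were measured, since the genes of the liver and gut apolipoproteins Apoa1, Apoa4, Apoa5, Apob and Apoc3, and Apom and Lcat, were not well above background. Pltp, the phospholipid transfer protein gene (2.22 ± 0.06), and Apod, a lipocalin gene (1.88 ± 0.02), were higher, each without a call under median centring. Apoc1, the apolipoprotein B48 receptor gene Apobr (-1.46 ± 0.02) and the RNA editing enzyme gene Apobec1 (-1.15 ± 0.16, not called under median centring) were lower.

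Of 10 other measured lipases and cofactors only Mgll was called, higher at 2.79 ± 0.01. It encodes monoacylglycerol lipase, and its other 2 probes read 0.99 and 1.60, with a mean over probes of 1.80. Gpihbp1, which carries lipoprotein lipase across capillary endothelium, stood at the threshold (1.005 ± 0.01), as did the lysosomal acid lipase gene Lipa (0.97 ± 0.08). Lmf1, whose product matures the lipase, was at -0.96 ± 0.13. None of these 3 was called. With the ratios of the scanner software Gpihbp1 (1.48) was called higher and Lmf1 (-1.11) lower.

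Of 12 measured genes of fatty acid binding, uptake and activation, 5 were higher and 1 was lower (median 0.73). Fabp2, the intestinal fatty acid binding protein gene, read 407.3 and 316.1 in the colon pool, against 82.67 and 69.02 in the blood pool (2.25 ± 0.07). Fabp6, the bile acid binding protein gene of the gut, was dim in the blood pool and 3.06-fold higher as a bound from the mean of both arrays. Its log2 ratios were 1.84 on array 1 and 1.43 on array 2. Dgat1, which encodes an enzyme of the last step of triglyceride synthesis, stood at 2.11 ± 0.17 and the fatty acid transporter gene Slc27a1 at 1.41 ± 0.16, both without a call under median centring. Fabp7 was lower (-1.33 ± 0.24). Of 6 measured lipid droplet genes only Hilpda was called. It encodes a droplet protein induced by hypoxia, and read 11140 and 11290 in the colon pool, against 827.6 and 793.1 in the blood pool (3.79 ± 0.06). Plin1, Plin5, Cidec and Fitm2 were not measured.

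Of 18 genes of cholesterol transport, esterification and oxysterols, 4 were higher and 2 were lower (median -0.19). With the ratios of the scanner software 5 were higher and 8 lower, where 20.3% of all measured genes were higher and 13.3% were lower. Gpr183, the receptor gene for an oxysterol made onward from 25-hydroxycholesterol, was higher (1.95 ± 0.0032). The cholesteryl ester hydrolase gene Nceh1 (1.82 ± 0.15), the sterol transfer gene Gramd1b (1.66 ± 0.11) and the lysosomal cholesterol exporter gene Npc1 (1.18 ± 0.07) were also higher. All 4 calls were lost under median centring, with values of 1.39, 1.11, 1.05 and 0.59 in the same order. Abca7, a transporter gene related to Abca1, was lower: it read 4514 and 4438 in the colon pool, against 19870 and 16230 in the blood pool (-2.00 ± 0.19). Stard3, a late endosomal sterol transfer gene, was lower too (-1.36 ± 0.07). Cyp7b1 and Hsd3b7, whose products convert 25-hydroxycholesterol further, were at -0.88 ± 0.08 and 0.31 ± 0.02 and were not called. The esterifying enzyme gene Soat1 was at -0.80 ± 0.02 and was not called. With the ratios of the scanner software Cyp7b1 (-2.11) and Soat1 (-1.16) were called lower.

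**Figure D3:**
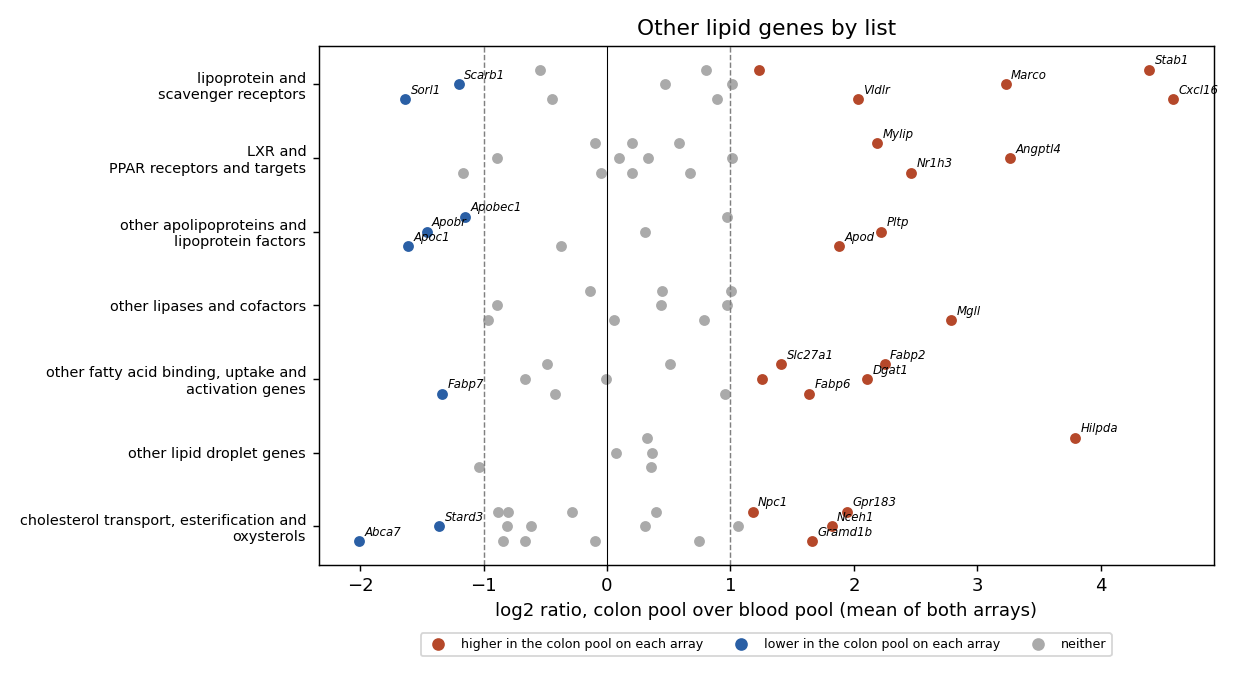
Mean log2 ratio (colon over blood) for the 81 measured genes of 7 lipid lists, 1 point per gene, spread vertically within a list for legibility, with dashed lines at 1 and -1. The higher genes (red) reach 4.58 for Cxcl16 and the lower genes (blue) reach -2.00 for Abca7, while 52 genes (grey) were called neither.

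Markers of other cells were read because several of these genes are also used by fat, endothelium, platelets or epithelium. In pooled RNA, fewer cells of a type and less RNA per cell cannot be told apart. Of 8 macrophage markers 6 were higher in the colon pool (Mrc1, C1qb, C1qa and C1qc between 5.78 and 4.51), while Csf1r (0.95 ± 0.34) was not called and Fcgr1 was below 0 on both arrays (-0.62 ± 0.10). The summed normalized intensity of the list was 375400 and 372000 in the colon pool, against 74700 and 84510 in the blood pool. Of these blood sums, 58290 and 67550 came from Csf1r alone. Sums here and below add different probes, so the brightest weigh most, and a dim probe adds mainly the offset of 50. They do not measure the amount of a cell type. All 7 Ly6C-high monocyte markers were lower in the colon pool (sums of 34880 and 25850, against 521500 and 337200 in the blood pool). Most macrophage markers and all monocyte markers thus stood on the side that the labels give. Beside the Abca1, Apoe, Pltp and Apod ratios, all 7 fibroblast markers were higher (median 6.75, against 3.88 for the macrophage markers), among them Dcn at 7.01 ± 0.08 and Col1a1 at 6.79 ± 0.04, with sums of 112600 and 113600 in the colon pool, against 1272 and 1158 in the blood pool. 

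Beside Fabp4, Cd36 and Lpl, 5 of 6 adipocyte markers (Adipoq, Lep, Cfd, Adrb3 and Aqp7) were not well above background, and the sixth, Retn, was not called (-0.24 ± 0.19). Of 9 endothelial markers 3 were higher (Egfl7 at 3.47 ± 0.19, Plvap and Cldn5), while Pecam1 (0.58 ± 0.02) was not called. With the ratios of the scanner software 6 of 9 were higher, against 20.3% of all measured genes. The sums of the list were 6125 and 5710 in the colon pool, against 2711 and 2316 in the blood pool. Beside Cd36, which platelets also carry, 4 of 7 platelet markers were lower in the colon pool and only Pf4, a gene that macrophages can express, was higher (5.53 ± 0.30). The summed platelet list, led by Pf4, was 111400 and 136300 in the colon pool, against 4807 and 6234 in the blood pool. Beside Fabp2 and Fabp6, 5 of 8 epithelial markers were higher (7 of 8 with the ratios of the scanner software, where 20.3% of all measured genes were higher). The sums of the list were 3880 and 3068 in the colon pool, against 698.9 and 546.6 in the blood pool. In the blood pool dim probes such as that of Krt19 (77.25 and 62.57) added mainly the offset. Krt8 led the epithelial markers (4.01 ± 0.24), with 2.26 from its other probe. Epcam (0.42 ± 0.37) did not pass the background flag in the blood pool and was not called, but read 2.31 and was called higher with the ratios of the scanner software. Of 4 measured dendritic cell markers Ccr7 was higher (5.07 ± 0.14) and Flt3 was lower (-1.50 ± 0.14). With the ratios of the scanner software 3 of the 4 were higher and 1 was lower, with a median of 1.87. Of 7 measured neutrophil markers 4 were lower in the colon pool and 0 were higher, with sums of 14390 and 11940 in the colon pool, against 105900 and 73750 in the blood pool. The part of each of these cell types in the lipid gene ratios was not tested.

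The 10 ratios were recomputed under 9 other processing choices, and no ratio changed sign. Of the 9, Aquantile scaling leaves the ratios unchanged and the deposited value table repeats those of the scanner software. Abca1 ranged from 4.57 to 5.55, Apoe from 2.74 to 3.99, Cd36 from 2.63 to 3.45 and Ch25h from 2.82 to 4.60, and these 4 were called higher under all 9. Under median centring, however, Apoe read 4.42 on array 1 and 1.05 on array 2, so its call there was kept only narrowly. Apoc2 ranged from -2.19 to -1.35 and was called lower under all 9. Abcg1 ranged from -0.87 to -0.01 and was called under none. Fabp5 ranged from 1.02 to 1.81, Plin2 from 0.52 to 1.35 and Fabp4 from 0.53 to 1.20. Lpl ranged from -1.72 to -0.78 and was called lower from array 2 alone. Median centring gave the lowest value for all 10 genes and also moved the median of all measured genes to -0.28. Relative to the median of all genes, the median of the 10 genes was 1.47 higher as reported, 1.06 higher under median centring and 1.61 higher with the ratios of the scanner software. Of all called genes, 76.1% were higher in the colon pool as reported, 67.1% under median centring and 60.4% with the ratios of the scanner software.

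**Figure D4:**
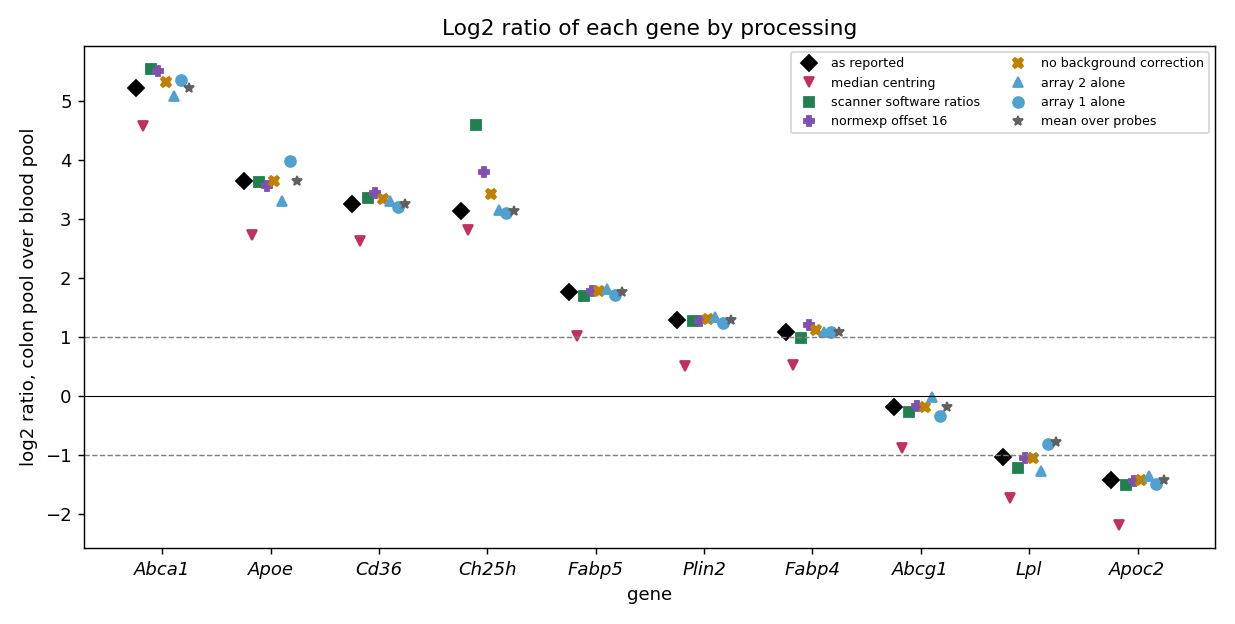
Log2 ratio (colon over blood) of each gene as reported (black diamonds) and under 7 other choices, with dashed lines at 1 and -1. Abca1, Apoe, Cd36 and Ch25h stay above 1 and Apoc2 below -1 throughout, while Plin2 and Fabp4 fall below 1 under median centring, and Fabp4 also with the ratios of the scanner software (0.98).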

How the data were processed

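Total RNA (25 ng per pool) was amplified from an oligo-dT primer and hybridised as a dye swap, per the labels' protocols. The deposited scanner files hold linear intensity per spot in both channels and a log10 ratio, red over green, from the scanner software, per the file headers. The submitters' processing notes name Agilent Feature Extraction 10.5.1.1 and the file headers 10.7.3.1. The authors' deposited value table equals the software's ratio turned to colon over blood (largest difference 1.6e-07 on the log2 scale).

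Intensities were corrected by normexp with an offset of 50 and normalized by loess within each array (limma 3.58.1, R 4.3.3), with control and outlier spots at weight 0. Array 2 was turned, spots of a probe were averaged, and the brightest probe gave the gene's value. The offset compresses the ratios of dim genes. Measured genes are those for which 1 pool passed the software's background flag on both arrays. Of 44397 spots per array 43020 were no controls, and 52.9% to 59.6% of them were well above background. Median intensities were 96.59 in the colon pool and 64.2 in the blood pool on array 1, and on array 2 they were 67.06 in the colon pool and 79.91 in the blood pool. A gene dim in 1 pool on both arrays was given a bound, the bright pool's mean log2 signal minus the higher of the dim probe's own and the lowest signal well above background in that channel, after loess and Aquantile. For Apoc4 and Vldlr the dim probe's own signal set the bound, which then equals the mean fold. A single array or other processing can give less than the bound. An mm9 annotation was not used here, so probes are not placed in exons.

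On simulated arrays of 43020 probes for the colon pool over the blood pool, 50 of 50 bright probes changed by 1.5 (log2) were called and 13 of 50 dim ones. At a change of 3 it was 50 of 50 bright and 50 of 50 dim, with 0 unchanged probes called. Few simulated probes changed, equally in both directions, and the noise was set and not taken from the arrays. In the data 18.6% of measured genes were called, 76.1% of them higher in the colon pool. The simulation therefore cannot show how the loess fit or the rate of false calls behaves under so many changes mostly in 1 direction. Genes were named through RefSeq accessions (GRCm38.p6). The members and gene lists were chosen with earlier results of these data known. Every member is named, as are up to 4 called genes per direction and list by size, the brightest of a list without calls, and further list genes (Nr1h2, Srebf1, Lpcat3, Arl4c, Pparg, Pdk4, Cpt1a, Gpihbp1, Lipa, Lmf1, Cyp7b1, Hsd3b7, Soat1, Csf1r, Fcgr1, Epcam, Pecam1 and the neighbour gene Tomm40) chosen after their values were seen.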

Additional observations from a re-analysis of the deposited data

How the results depend on the processing

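The number of the 10 genes called higher was 4 under median centring and 4 with a 4-fold threshold, and the number called lower was 2 with a 1.5-fold threshold, 0 with a 4-fold threshold and 1 to 2 from each array alone. Of the 81 further lipid genes, 10 were higher under median centring, 33 with a 1.5-fold and 11 with a 4-fold threshold, where 7.25%, 22.3% and 6.08% of all measured genes were higher, in the same order. The number lower was 18 with the ratios of the scanner software, 18 with the deposited value table, 19 with a 1.5-fold and 0 with a 4-fold threshold, where 13.3%, 13.3%, 11% and 0.829% of all measured genes were lower. The median of the 10 genes was 0.78 under median centring. The other counts and medians, under no background correction, an offset of 16, Aquantile scaling, the mean over probes and both filters, stayed within 1.5 times or the spread between arrays. Of 90 recomputed ratios 63 moved by less than the SD between arrays, 27 by more, and 0 changed sign. Part of the 63 was fixed beforehand. Aquantile scaling leaves the ratios as they are, the mean over probes can move only Lpl, and a single array always lies within the SD of the mean of both arrays. The deposited value table repeats the ratios of the scanner software, so these are not 90 separate checks. The cause of each shift was not tested. No paired analysis was possible because each array already sets both pools side by side and the pair is 1 replicate. Dim probes limit the small ratios, as local background was 40.5 to 43.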
